A study of Mus musculus with 6 samples.

Results

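The cytosolic ribosomal protein genes were followed across 6 Affymetrix arrays of mouse embryonic stem (ES) cells in which the RNA-binding protein gene Lin28a was knocked down. A gene was counted as a member when a row of the value table carried its symbol alone and the symbol had the required form. That form was a cytosolic ribosomal protein name (Rpl or Rps with a number and an optional suffix, or Rplp0, Rplp1, Rplp2 and Rpsa). Symbols marked as pseudogenes by -ps and the S6 kinases were left out. Rows were not screened for copies or pseudogenes annotated with the symbol of the parent gene. A gene with several rows was represented by its brightest row, and the choice used no difference between groups. The rule found 60 members among the 19946 genes that have a row of their own. Of these, 53 belong to the 80 genes of the core ribosome (33 of the large subunit and 20 of the small subunit) and 7 are paralogs or copies (Rpl3l, Rpl7l1, Rpl10l, Rpl32l, Rpl39l, Rps4l and Rps27l). The other 27 core genes are not analysed here as members. The annotation names 16 of them only on rows shared with other symbols, and Fau and Rps3a1 have a row of their own but lie outside the naming rule.

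The cells were of the line A3-1, grown in serum and in LIF, the cytokine added to hold mouse ES cells in the undifferentiated state. The groups were cells given a small interfering RNA (siRNA) against Lin28a for 48 h (siLin28a), cells given an siRNA against green fluorescent protein for 48 h as the control siRNA (siGFP), and cells that received no siRNA (untreated). Each group has 2 arrays, and each siRNA group received a single siRNA sequence, so an effect of the Lin28a sequence on other transcripts cannot be told apart from an effect of the knockdown. Whether the paired arrays within a group stem from separate cultures is not stated in the labels, so every p-value reflects spread between arrays that may be technical alone.

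The cytosolic ribosome reads mRNA on its small subunit, made with the Rps proteins, and joins amino acids on its large subunit, made with the Rpl proteins. In mammals most ribosomal protein mRNAs begin with a run of pyrimidines, the terminal oligopyrimidine (TOP) motif, through which growth signals acting on LARP1 and mTOR control their translation more than their abundance. LIN28A blocks maturation of the let-7 microRNAs and also binds many mRNAs in ES cells. The arrays measure mRNA abundance, and translation was not measured. In bulk samples such as these, fewer cells of a type and less RNA per cell cannot be told apart.

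The start regions of 7 members are shown because they carry the feature that defines TOP mRNAs, or lack it at the annotated start. Each runs from 40 bases before the transcript start annotated by RefSeq (build GRCm38.p6) to 15 bases after it, 5′ to 3′ on the gene's strand. Capitals mark a tract found at the start, defined here as a C followed by at least 4 further C or T letters and beginning between base -3 and base 4 around the start.
Rps6, chr4:86857353-86857407, minus strand: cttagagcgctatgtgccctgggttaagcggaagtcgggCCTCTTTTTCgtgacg
Rps18, chr17:33955651-33955705, minus strand: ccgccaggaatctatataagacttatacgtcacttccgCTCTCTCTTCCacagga
Rplp2, chr7:141447611-141447665, plus strand: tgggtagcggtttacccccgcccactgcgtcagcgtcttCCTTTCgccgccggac
Rps27l, chr9:66946046-66946100, plus strand: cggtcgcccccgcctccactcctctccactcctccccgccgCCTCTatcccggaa
Rpl10l, chr12:66284387-66284441, minus strand: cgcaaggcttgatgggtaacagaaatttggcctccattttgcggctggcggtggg
Rpl39l, chr16:10170188-10170242, plus strand: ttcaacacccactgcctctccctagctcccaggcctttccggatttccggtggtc
Rpl7l1, chr17:46782642-46782696, minus strand: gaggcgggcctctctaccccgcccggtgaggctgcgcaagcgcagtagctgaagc
The tract is 10 letters long in Rps6, 11 in Rps18, 6 in Rplp2 and 5 in the paralog Rps27l. The paralogs Rpl10l, Rpl39l and Rpl7l1 hold no tract that meets the definition. In Rpl39l a run of 7 pyrimidines, CCTTTCC, ends at base -1 of the annotated start, which the definition does not count.

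RefSeq start regions (250 bases before to 50 after the start) were at hand for 48 of the 60 members and for 27025 genes in all. The tract at the start was found in 16 of the 48 members (33.3%) and in 13.5% of all genes. The letters CTTTCC on the sense strand, the last 6 of that 7-letter run in Rpl39l, were present anywhere in the region of 17 members (35.4%) and of 16.0% of all genes. The letters CCGGAAG on either strand, a core of the ETS family's binding site, were present in 18 members (37.5%) and in 9.93% of all genes. TATAAA on either strand was present in 6 members (12.5%) and in 15.7% of all genes. These shares describe letters in the windows, which shift with the annotated start, and 1 position of error can move a tract outside the definition.

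The values are log2 expression made by RMA in steps of 0.1, so the mean of 2 arrays moves in steps of 0.05. The array medians were 5.2 to 5.3, and array pairs had a Pearson r of 0.991 to 0.995 over the rows (rows are no replicates). Within a group, r was 0.994 in siLin28a, 0.993 in siGFP and 0.992 in untreated cells. Between siLin28a and siGFP arrays of the same replicate number it was 0.995 for either number. Between untreated and siRNA arrays of the same number it was 0.991 to 0.994. The members' rows were bright, with 59 of 60 at a mean of at least 6 over the 6 arrays and 43 at a mean of at least 10. The exception was Rpl3l, known from striated muscle, at 4.4. The targeted gene Lin28a had 7.4 and 7.4 in siLin28a cells, 9.1 and 9.4 in siGFP cells and 9.1 and 9.4 in untreated cells. Its log2 fold change was −1.85 (SE 0.16) against siGFP, with a limma adjusted p of 0.512. All 12 ES cell markers had a row with a mean between 8.3 and 12.5, and their summed values were 121.3 to 122.5 in siLin28a, 124.7 to 127.3 in siGFP and 125.7 to 126.3 in untreated cells. Of 12 feeder fibroblast markers 11 had a row, 3 of them with a mean of at least 6, and the sums were 60.4 to 61.6 in siLin28a, 60 to 60.3 in siGFP and 60.2 to 61.7 in untreated cells. Of 10 primitive endoderm markers all had a row, 1 of them with a mean of at least 6, and the sums were 50.4 to 51.2 in siLin28a, 50.9 to 51.0 in siGFP and 50.1 to 51.4 in untreated cells. The ES cell sum of either siLin28a array was below that of the other 4 arrays, and its part in the ribosomal protein values was not tested.

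The first comparison asks how ribosomal protein transcripts stood after Lin28a knockdown, relative to the control siRNA. They stayed close to their control values. Of the 60 members, 57 (95%) lay within 0.15 of 0 on the log2 scale. The share was 68.7% of the 23410 rows tested and 84.0% of the 1276 rows with a mean of at least 10. Ribosomal protein rows were not removed from these backgrounds, here or in the later comparisons. The 1276 bright rows hold 43 of the members, together with further rows of the same genes. No member passed the threshold: 0 of 60 had a limma adjusted p under 0.05, as did 0 of all rows (0%). The smallest adjusted p of a member was 0.953. The threshold also missed the targeted gene Lin28a, at −1.85 (SE 0.16) with a limma adjusted p of 0.512. The lack of calls therefore does not show that the members were unchanged. The largest differences were those of the paralogs Rpl10l and Rpl39l, the only members beyond 0.20 in size.

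The members' median log2 fold change, siLin28a against siGFP, was −0.05 (SD over members 0.12, range −0.20 to 0.50), beside a median of 0.00 over all rows tested and −0.05 over the rows with a mean of at least 10. In these values 46 members were lower, 6 were higher and 8 were equal, but the split was 30 lower and 26 higher after a further quantile normalization and 29 lower and 31 higher after cyclic loess. The same imbalance was present in bright rows as a whole, of which 897 were lower and 142 higher as deposited. After cyclic loess 613 of them were lower and 663 higher. The bright rows include the members' own bright rows, so they are no separate background. In the large subunit 27 of 33 core genes were lower and 1 was higher (median −0.05), and in the small subunit 15 of 20 were lower and 3 higher (median −0.08), both before the further scalings. For 51 of the 60 members the difference was smaller than its own standard error, which ranged from 0.11 to 0.26 with a median of 0.13.

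The precision sets what could have been seen. The 95% interval of the difference lay within 0.5 of 0 for 49 of the 60 members, and for none did it reach −1 or 1. Across the members the interval bounds ran from −0.77 to 0.91. A doubling or halving of any member's array value between siLin28a and siGFP cells thus lay outside its interval. Differences of the size of the standard errors were not detectable with 2 arrays per group. How closely the values of bright rows follow transcript amounts was not tested. These intervals rest on spread between arrays that may be technical alone, so they may be too narrow for separate cultures.

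By an unadjusted limma p under 0.05, 2 of 60 members stood apart between siLin28a and siGFP (3.33%), Rpl10l and Rpl39l, beside 949 of all rows (4.05%). Both siLin28a arrays lay above both siGFP arrays for 3 members (5.0%: Rpl10l, Rpl39l and Rps15a), beside 9.03% of all rows, and below them for 3 members (5.0%: Rpl12, Rpl30 and Rpl36a), beside 11.8% of all rows. Each of these shares rests on only 2 or 3 members, too few to set it apart from the share of all rows, and none was tested.

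**Figure D1:**
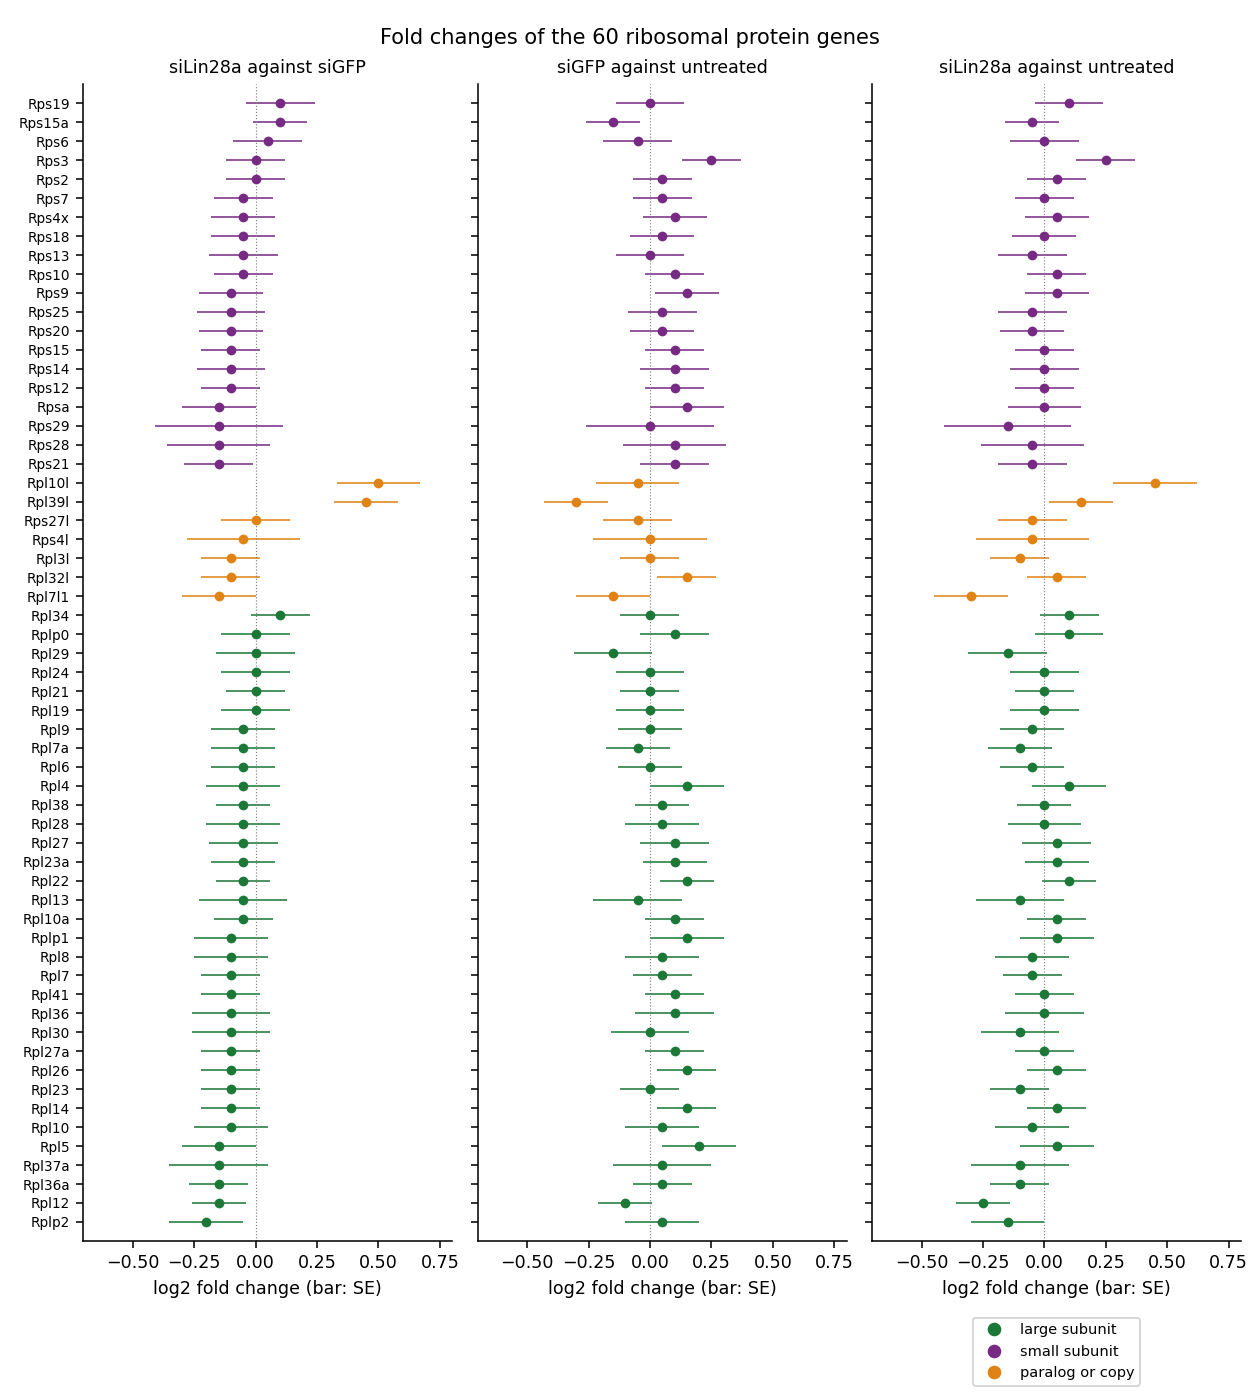
The log2 fold change (x axis) of each of the 60 ribosomal protein genes (y axis) is plotted for siLin28a against siGFP, siGFP against untreated and siLin28a against untreated, with points coloured by subunit or paralog and bars for limma's standard error. In siLin28a against siGFP all genes lie between −0.20 and 0.10 except Rpl10l at 0.50 and Rpl39l at 0.45, and most bars of the core genes cross 0.

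The small offset of the members moved with a single array. Set against its own mean over the 6 arrays, the median member deviated by 0.00 and −0.03 in siLin28a replicates 1 and 2, by −0.04 and 0.12 in siGFP replicates 1 and 2, and by −0.07 and 0.02 in untreated replicates 1 and 2. SiGFP replicate 2 held the highest value, ties included, for 49 of the 60 members, and alone for 30. Within the siGFP group replicate 2 was above replicate 1 for 52 members, below it for 2 and equal for 6, a median gap of 0.15. Bright rows, ribosomal protein rows included, shared this, with 79.5% higher in siGFP replicate 2 than in replicate 1, against 50.8% of all rows.

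The replicates of the other groups were nearer to each other. In siLin28a cells replicate 2 was higher for 21 members, lower for 26 and equal for 13, and in untreated cells it was higher for 35, lower for 10 and equal for 15. Without siGFP replicate 2 the members' median for siLin28a against siGFP was 0.03, with 30 members higher and 20 lower. Without siGFP replicate 1 it was −0.15. The direction of the median in this comparison therefore depended on which siGFP array was kept.

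**Figure D2:**
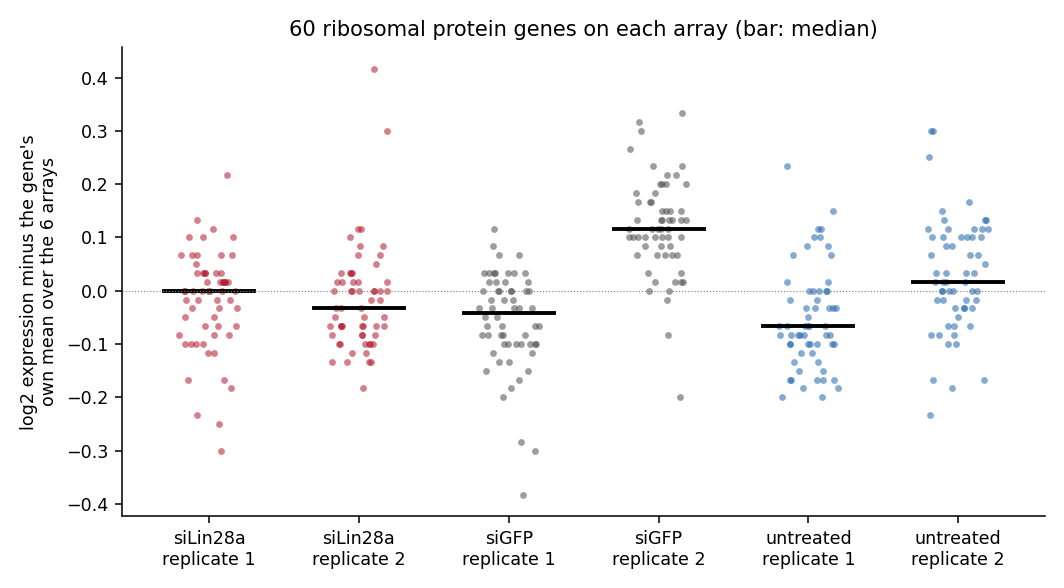
Each point is a ribosomal protein gene on an array (x axis), plotted as its log2 expression minus the gene's own mean over the 6 arrays (y axis), with bars for the medians of the 60 genes. The median is 0.12 in siGFP replicate 2 and between −0.07 and 0.02 on the other arrays.

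Among the core genes the differences between siLin28a and siGFP were small in every functional region of the ribosome that was listed. The P stalk of the large subunit, made of Rplp0, Rplp1 and Rplp2, recruits the elongation factors. Rplp2, whose start region holds the 6-letter tract shown above, had 6.3 and 6.4 in siLin28a cells, 6.4 and 6.7 in siGFP cells and 6.4 and 6.6 in untreated cells. The groups met at 6.4, and the log2 fold change of −0.20 (SE 0.15) against siGFP was the lowest of any member. Rplp0 had 11.9 and 12.0 in siLin28a cells, 11.8 and 12.1 in siGFP cells and 11.8 and 11.9 in untreated cells. Its siLin28a arrays lay between its siGFP arrays. Rplp1 had 12.4 and 12.3 in siLin28a cells, 12.3 and 12.6 in siGFP cells and 12.2 and 12.4 in untreated cells, and its groups overlapped as well.

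Rpl19, Rpl22, Rpl23a and Rpl26 lie on the large subunit near the exit of the peptide tunnel, and Rpl23a helps to dock the signal recognition particle. Rpl23a had 11.9 and 11.7 in siLin28a cells, 11.8 and 11.9 in siGFP cells and 11.8 and 11.7 in untreated cells, all within 0.2. Rpl26 had 8.3 and 8.2 in siLin28a cells, 8.3 and 8.4 in siGFP cells and 8.2 and 8.2 in untreated cells. Both siGFP arrays of Rpl26 lay above both untreated arrays, and the siLin28a arrays spanned the gap. Rpl22, an RNA-binding protein that the ribosome can do without, had 8.9 and 8.9 in siLin28a cells, 9.0 and 8.9 in siGFP cells and 8.8 and 8.8 in untreated cells. Its untreated arrays were below all 4 siRNA arrays. Rpl19 had equal group means, with 12.1 and 12.1 in siLin28a cells, 12.0 and 12.2 in siGFP cells and 12.0 and 12.2 in untreated cells.

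On the small subunit, Rps2, Rps3 and Rps9 line the channel through which mRNA enters, and Rps3 also serves as a DNA repair factor. Rps3 had 11.5 and 11.4 in siLin28a cells, 11.4 and 11.5 in siGFP cells and 11.2 and 11.2 in untreated cells. The siRNA groups coincided and all 4 of their arrays lay above the untreated arrays. Rps3 had a log2 fold change of 0.00 (SE 0.12) for siLin28a against siGFP and 0.25 (SE 0.12) for siGFP against untreated, with a limma adjusted p of 0.961. Rps9 had 11.1 and 11 in siLin28a cells, 11.1 and 11.2 in siGFP cells and 10.9 and 11.1 in untreated cells, and its groups overlapped. Rps2 had 12.6 and 12.5 in siLin28a cells, 12.5 and 12.6 in siGFP cells and 12.5 and 12.5 in untreated cells.

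Rps14, Rps28 and Rpsa lie where the mRNA leaves. Each was lower in siLin28a than in siGFP cells on average, by −0.10 for Rps14 and −0.15 for Rps28 and Rpsa, and remained lower in the mean after every further scaling, with a median of −0.07 over the 3 after cyclic loess, though Rps28 was higher by 0.10 without siGFP replicate 2. Rps28 had 10.1 and 10.3 in siLin28a cells, 10.1 and 10.6 in siGFP cells and 10.1 and 10.4 in untreated cells. Every group of Rps28 had its lower array at 10.1 and its replicate 2 higher, so the gap within a group exceeded the gaps between groups. Rpsa, also a laminin receptor at the cell surface, had 11.5 and 11.6 in siLin28a cells, 11.6 and 11.8 in siGFP cells and 11.4 and 11.7 in untreated cells. Rps14 had 11.4 and 11.4 in siLin28a cells, 11.4 and 11.6 in siGFP cells and 11.3 and 11.5 in untreated cells. For these genes the siLin28a arrays touched or lay inside the range of the siGFP arrays.

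Rpl5 and Rpl23 can bind the p53 ligase MDM2 when ribosome assembly stalls, and a further such protein, Rpl11, is not among the members. Rpl5 had 12.0 and 11.8 in siLin28a cells, 12.0 and 12.1 in siGFP cells and 12.0 and 11.7 in untreated cells. Its lowest values were replicate 2 of the untreated and of the siLin28a group. Rpl23 had 11.9 and 11.8 in siLin28a cells, 11.9 and 12.0 in siGFP cells and 11.9 and 12.0 in untreated cells. Rpl23 differed by −0.10 (SE 0.12) between siLin28a and siGFP and by 0.00 between siGFP and untreated cells.

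Rps6, the small-subunit protein phosphorylated by the S6 kinases and a carrier of the 10-letter tract, had 12.5 and 12.3 in siLin28a cells, 12.3 and 12.4 in siGFP cells and 12.5 and 12.3 in untreated cells. The 3 groups overlapped fully. Rps19, mutated in Diamond-Blackfan anaemia in humans, had 8.3 and 8.4 in siLin28a cells, 8.1 and 8.4 in siGFP cells and 8.2 and 8.3 in untreated cells. Rps18, whose tract is the 11-letter one, had 12.7 and 12.6 in siLin28a cells, 12.6 and 12.8 in siGFP cells and 12.6 and 12.7 in untreated cells. None of these 3 genes separated the groups.

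Of the members whose arrays did separate, Rpl12 did so in every comparison. Rpl12, a large-subunit protein at the base of the stalk, had 8.0 and 7.9 in siLin28a cells, 8.1 and 8.1 in siGFP cells and 8.2 and 8.2 in untreated cells. Every siLin28a array of Rpl12 lay below every siGFP array, and every siGFP array below every untreated array. Its log2 fold change was −0.25 (SE 0.11) for siLin28a against untreated, with a limma unadjusted p of 0.066 and an adjusted p of 0.776. Rps15a had 8.2 and 8.2 in siLin28a cells, 8.1 and 8.1 in siGFP cells and 8.2 and 8.3 in untreated cells, so the siGFP arrays alone were low. Rpl36a had 10.7 and 10.6 in siLin28a cells, 10.8 and 10.8 in siGFP cells and 10.8 and 10.7 in untreated cells. Rpl30 had 8.8 and 8.8 in siLin28a cells, 8.9 and 8.9 in siGFP cells and 9.1 and 8.7 in untreated cells, and it is named because its siLin28a and siGFP arrays did not overlap. All these gaps between neighbouring arrays were a single rounding step of 0.1. Rpl34 had 6.8 and 6.8 in siLin28a cells, 6.6 and 6.8 in siGFP cells and 6.7 and 6.7 in untreated cells, and its siGFP arrays spanned the values of both other groups.

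The largest standard error among members belonged to Rps29, a small zinc-binding protein of the small subunit. It had 9.8 and 10.2 in siLin28a cells, 9.9 and 10.4 in siGFP cells and 9.9 and 10.4 in untreated cells, with replicate 2 higher by at least 0.4 in each group and an SE of 0.26. The labels give no meaning to the replicate numbers beyond naming arrays. Rps21 had 10.4 and 10.3 in siLin28a cells, 10.4 and 10.6 in siGFP cells and 10.3 and 10.5 in untreated cells. Rpl29, a large-subunit protein also known as a heparin-binding protein, had 9.8 and 9.9 in siLin28a cells, 9.8 and 9.9 in siGFP cells and 9.8 and 10.2 in untreated cells. Its siRNA groups held the same values, and untreated replicate 2 was its single high array.

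Of the 7 paralogs and copies, Rpl10l and Rpl39l had the 2 largest log2 fold changes of all members for siLin28a against siGFP. The other 5, left after these 2 were set aside by their values, ran from −0.15 to 0.00 with an SD of 0.06. The SD was 0.06 over the 33 large-subunit core genes, 0.08 over the 20 small-subunit core genes and 0.19 over all rows. Over the same 5 it was 0.11 for siGFP against untreated and 0.13 for siLin28a against untreated, beside 0.08 over either core set in both comparisons. Rpl10l, the autosomal copy of the X-linked Rpl10 that replaces it during male meiosis, had 8.8 and 9.0 in siLin28a cells, 8.2 and 8.6 in siGFP cells and 8.4 and 8.5 in untreated cells. Its siLin28a arrays were above all 4 others. It averaged 8.90 ± 0.141 in siLin28a cells and 8.40 ± 0.283 in siGFP cells (SD, n = 2 each). The difference of 0.50 on the log2 scale (SE 0.17, 95% interval 0.09 to 0.91), or 1.41-fold, had a limma unadjusted p of 0.0247 and an adjusted p of 0.953. Against untreated cells it was 0.45 (SE 0.17), with a limma adjusted p of 0.734. Without siGFP replicate 1 the difference from siGFP was 0.30, and over all alternatives run it lay between 0.30 and 0.70, with limma adjusted p between 0.706 and 1.0.

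Rpl10, the core gene that Rpl10l resembles, had 12.8 and 12.7 in siLin28a cells, 12.7 and 13.0 in siGFP cells and 12.7 and 12.9 in untreated cells. Rpl10 did not separate the groups. The log2 fold change of Rpl10l minus that of Rpl10 was 0.60 for siLin28a against siGFP and −0.10 for siGFP against untreated, and the within-array difference of their rows was higher in both siLin28a arrays than in both siGFP arrays. Each gene was read from the brightest row that carries its symbol alone. Rpl10 has 6 such rows, which were not screened for copies annotated with its symbol. Whether probes of Rpl10l also read Rpl10 transcripts or retrocopies was not tested.

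Rpl39l, a paralog of Rpl39 found in male germ cells, had 8.5 and 8.7 in siLin28a cells, 8.1 and 8.2 in siGFP cells and 8.5 and 8.4 in untreated cells. The siGFP arrays were the low ones, and siLin28a and untreated cells met at 8.5. Rpl39l averaged 8.60 ± 0.141 in siLin28a cells and 8.15 ± 0.0707 in siGFP cells (SD, n = 2 each). The log2 fold change was 0.45 (SE 0.13, 95% interval 0.14 to 0.76), or 1.37-fold, for siLin28a against siGFP, with a limma unadjusted p of 0.0123 and an adjusted p of 0.953. It was −0.30 (SE 0.13) for siGFP against untreated and 0.15 for siLin28a against untreated. Over all alternatives run, the difference between siLin28a and siGFP lay between 0.35 and 0.55. These comparisons share arrays, so the siGFP values enter both of the larger differences. Rpl39 itself has no row of its own and was not analysed here. Whether probes of Rpl39l also read Rpl39 transcripts or retrocopies was not tested.

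Rpl7l1, a paralog of Rpl7 whose yeast relative takes part in ribosome assembly, had 9.8 and 10 in siLin28a cells, 9.9 and 10.2 in siGFP cells and 10.2 and 10.2 in untreated cells. Both siLin28a arrays were below both untreated arrays, with a log2 fold change of −0.30 (SE 0.15) and a limma adjusted p of 0.783. Rpl7 had 11.6 and 11.5 in siLin28a cells, 11.6 and 11.7 in siGFP cells and 11.6 and 11.6 in untreated cells. Subtracting the log2 fold change of Rpl7 from that of Rpl7l1 gave −0.25 for siLin28a against untreated. Rps27l, a p53-induced paralog of Rps27, had 9.2 and 9.4 in siLin28a cells, 9.2 and 9.4 in siGFP cells and 9.4 and 9.3 in untreated cells, and the siRNA groups held identical values.

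Rps4l had 9.8 and 10.1 in siLin28a cells, 9.7 and 10.3 in siGFP cells and 9.9 and 10.1 in untreated cells, and Rps4x, the X-linked core gene it resembles, had 10.9 and 10.8 in siLin28a cells, 10.8 and 11 in siGFP cells and 10.8 and 10.8 in untreated cells. The gap of 0.6 between the siGFP replicates of Rps4l was the widest of any member. Rpl3l had 4.3 and 4.4 in siLin28a cells, 4.5 and 4.4 in siGFP cells and 4.5 and 4.4 in untreated cells. Rpl32l had 7.5 and 7.4 in siLin28a cells, 7.5 and 7.6 in siGFP cells and 7.4 and 7.4 in untreated cells. Neither of the dimmer copies separated siLin28a from siGFP cells.

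**Figure D3:**
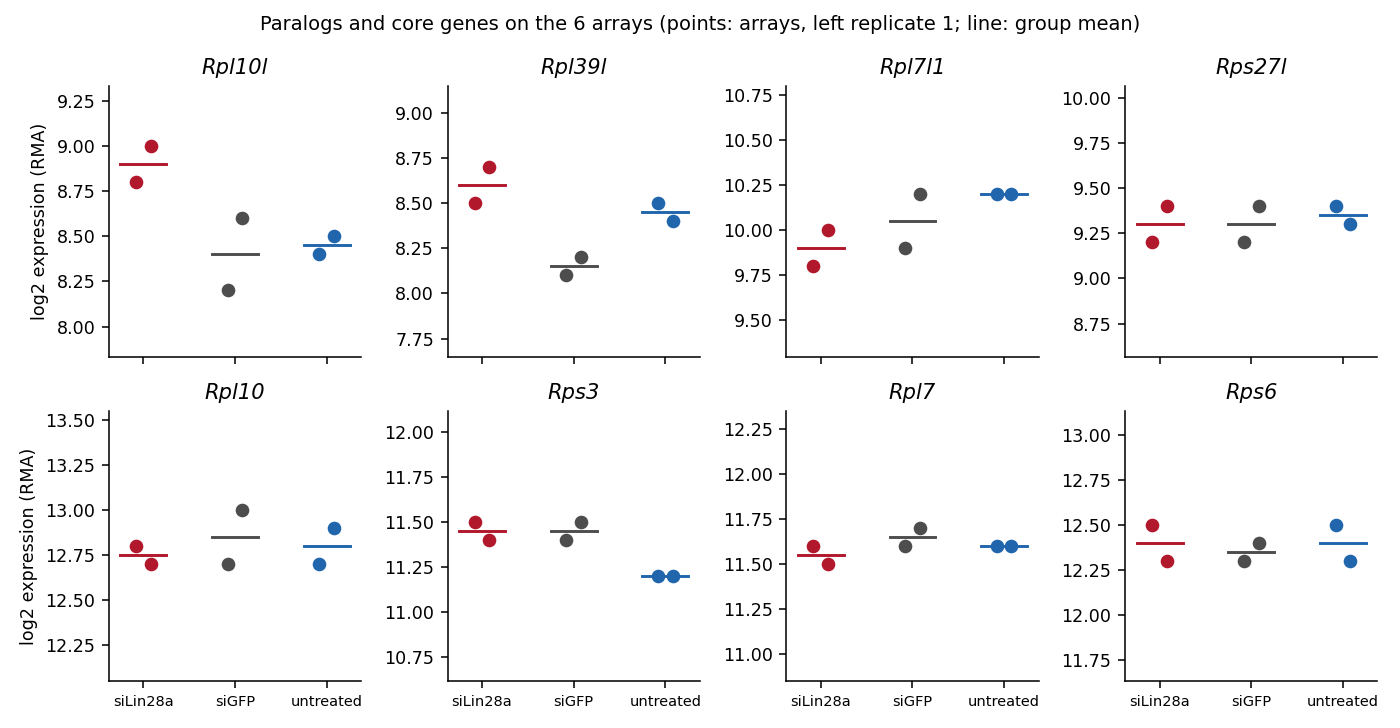
Log2 expression (y axis, 1 scale width for all panels) on each array is plotted for 4 paralogs (top row) and 4 core genes (bottom row) in siLin28a, siGFP and untreated cells, with points for arrays and lines for group means. Rpl10l is highest on the 2 siLin28a arrays, Rpl39l is lowest on the 2 siGFP arrays, and Rps3 is lowest on the 2 untreated arrays.

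The comparison of siGFP with untreated cells asks how cells given a control siRNA differed from cells given none. Most ribosomal protein genes were a little higher in siGFP than in untreated cells, at a size below the replicate spread. The median log2 fold change was 0.05 over the 60 members, beside 0.00 over all rows and 0.00 over the rows with a mean of at least 10, with 37 members higher, 10 lower and 13 equal. The split kept its direction under the other scalings, at 50 higher and 5 lower with arrays shifted to the same median, 38 and 15 after a further quantile normalization and 42 and 18 after cyclic loess. It did not keep it without siGFP replicate 2, where the median was −0.03 with 17 members higher and 30 lower, and leaving out siGFP replicate 1 gave a median of 0.15, leaving out untreated replicate 1 a median of 0.00.

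In siGFP against untreated, 0 of 60 members passed the limma threshold, beside 0 of all rows (0%), and 0 had an unadjusted limma p under 0.05, beside 3.52% of all rows. The smallest adjusted p of a member was 0.961. Both siGFP arrays lay above both untreated arrays for 5 members (8.33%: Rpl14, Rpl22, Rpl26, Rpl32l and Rps3), beside 9.22% of all rows, and below them for 3 (5.0%: Rpl12, Rpl39l and Rps15a), beside 8.46% of all rows. Rpl14, a core large-subunit protein, had 8.4 and 8.5 in siGFP cells and 8.3 and 8.3 in untreated cells, a single step apart at the nearest arrays. The members ranged from −0.30 (Rpl39l) to 0.25 (Rps3), and 57 of 60 lay within 0.15 of 0, beside 71.2% of all rows and 89.1% of the bright rows.

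Set against untreated cells, siLin28a cells had a median log2 fold change of 0.00 over the 60 members, beside 0.00 over all rows and −0.05 over the rows with a mean of at least 10 (302 higher and 736 lower). As deposited, 20 members were higher, 25 lower and 15 equal, a split that turned to 38 higher and 18 lower after a further quantile normalization and to 47 higher and 13 lower after cyclic loess, where the median was 0.06. Within 0.15 of 0 lay 56 of 60 members (93.3%), beside 64.8% of all rows and 78.7% of the bright rows. The range was −0.30 (Rpl7l1) to 0.45 (Rpl10l).

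In siLin28a against untreated, 0 of 60 members passed the limma threshold, beside 0 of all rows (0%). By an unadjusted limma p under 0.05 the count was 1 member (1.67%, Rpl10l), beside 1508 of all rows (6.44%). The siLin28a arrays lay above both untreated arrays for 4 members (6.67%: Rpl10l, Rpl22, Rpl34 and Rps3), beside 11.1% of all rows, and below them for 2 (3.33%: Rpl12 and Rpl7l1), beside 12.6% of all rows. The comparisons of siLin28a with siGFP and of siGFP with untreated share the siGFP arrays, and each also shares arrays with siLin28a against untreated.

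Many members are read by more than a single row, which gives a check on the measurement within each array. The members hold 216 rows with their symbol alone, 39 members have several, and Rps12 has 14. For siLin28a against siGFP the rows differed in sign for 5 of these 39 members, and the widest gap was 0.25, in Rpl7a, whose rows ran from −0.05 to 0.20. Over all 216 rows 167 were lower and 16 higher, with a median of −0.05. A further 235 rows name a ribosomal protein together with other symbols, and no gene was named from them. Of those, 141 were lower and 22 higher for siLin28a against siGFP, with a median of −0.05 and a range of −0.40 to 0.10. The rows of a gene share transcripts and near-identical copies, so they are no independent replicates. After cyclic loess 101 of the 216 rows were lower and 115 higher, and without siGFP replicate 2 the counts were 60 lower and 95 higher. Of the 235 shared rows 83 were lower and 152 higher after cyclic loess, and 61 were lower and 101 higher without siGFP replicate 2.

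Other genes of translation were read for comparison from lists. Of 57 listed ribosome biogenesis genes 56 had a row, with a median log2 fold change of −0.10 for siLin28a against siGFP (8 higher and 37 lower, but 26 higher and 30 lower after cyclic loess), beside −0.05 for the ribosomal proteins. Of these, Taf1b, a subunit of the RNA polymerase I selectivity factor, differed by −0.40 (SE 0.31), and Nop58, a core protein of box C/D snoRNPs, by −0.35 (SE 0.21). Of 39 translation factors 32 had a row, with a median of −0.10 (1 higher and 24 lower, but 15 higher and 17 lower after cyclic loess), and the largest differences were those of the initiation factor subunits Eif3m at −0.40 (SE 0.19) and Eif2s2 at −0.35 (SE 0.25). Of 14 other genes known to have TOP mRNAs 12 had a row, with a median of −0.10 (0 higher and 10 lower, but 5 higher and 7 lower after cyclic loess), including Eif3e at −0.30 (SE 0.26) and Eif3h at −0.15 (SE 0.13).

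The 77 mitochondrial ribosomal proteins, which build the separate ribosome of mitochondria, had a median of −0.05 for siLin28a against siGFP (12 higher and 51 lower, but 44 higher and 33 lower after cyclic loess). Without siGFP replicate 2 the median of this list was 0.05, and it was 0.00 for ribosome biogenesis, for translation factors and for the other TOP genes. Without siLin28a replicate 1 the median was 0.05 for ribosome biogenesis (30 higher and 18 lower), −0.05 for translation factors and −0.10 for the other TOP genes. Without siLin28a replicate 2 these 3 medians were −0.20, −0.15 and −0.08. Mrpl1 differed by −0.35 (SE 0.35) and Mrps9 by −0.30 (SE 0.12). Of 15 regulators of TOP mRNAs 14 had a row, with a median of 0.00 (0.06 after cyclic loess), and Larp4 differed by −0.35 (SE 0.22) and the mTOR target Eif4ebp2 by 0.25 (SE 0.24). Of 11 genes of ribosome quality control and ribosomal stress 8 had a row, with a median of 0.05 (5 higher and 3 lower) that was 0.00 with arrays shifted to the same median, 0.13 after cyclic loess (7 higher and 1 lower) and 0.14 after a further quantile normalization (6 higher and 1 lower). Mdm2 and the ribotoxic stress kinase Map3k20 each differed by 0.20 (SE 0.14), and Ltn1, a ubiquitin ligase that acts on stalled ribosomes and is named here after its value was seen, by −0.20 (SE 0.17). No gene of these lists passed the limma threshold in any comparison.

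For siGFP against untreated the medians of the same lists were 0.00 for ribosome biogenesis, 0.05 for translation factors, 0.12 for the other TOP genes, −0.05 for mitochondrial ribosomal proteins, −0.02 for TOP regulators and 0.08 for quality control and stress, beside 0.05 for the ribosomal proteins. Leaving out an array moved them to between −0.15 and 0.10 for biogenesis, −0.05 and 0.10 for translation factors, 0.02 and 0.18 for the other TOP genes, −0.15 and 0.05 for mitochondrial ribosomal proteins, −0.10 and 0.10 for TOP regulators and 0.05 and 0.12 for quality control and stress. The low end came without untreated replicate 2 for biogenesis (−0.15), without siGFP replicate 2 for translation factors (−0.05), the other TOP genes (0.02) and mitochondrial ribosomal proteins (−0.15), and without untreated replicate 1 for TOP regulators (−0.10). Within their lists, the members furthest from 0 included Dkc1 at −0.55 (SE 0.44) and Gar1 at 0.40 (SE 0.14), both of box H/ACA snoRNPs, Eif3a at 0.45 (SE 0.25) and Eif5b at 0.40 (SE 0.29), and Mrpl51 and Mrps7 at −0.30 each (SE 0.17 for Mrpl51 and 0.22 for Mrps7). The elongation factor genes Eef1b2 and Eef2, both with TOP mRNAs, differed by 0.20 each (SE 0.12 for Eef1b2 and 0.14 for Eef2). Mdm2 and Map3k20 differed by 0.25 each (SE 0.14), and Tia1, which binds TOP mRNAs under stress, by −0.40 (SE 0.26). Ddit4, an inhibitor of mTOR complex signalling, had 8.2 and 8.0 in siLin28a cells, 8.2 and 7.7 in siGFP cells and 7.1 and 7.0 in untreated cells. All 4 siRNA arrays of Ddit4 lay above both untreated arrays, with a log2 fold change of 0.90 (SE 0.19) for siGFP against untreated and a limma adjusted p of 0.961.

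**Figure D4:**
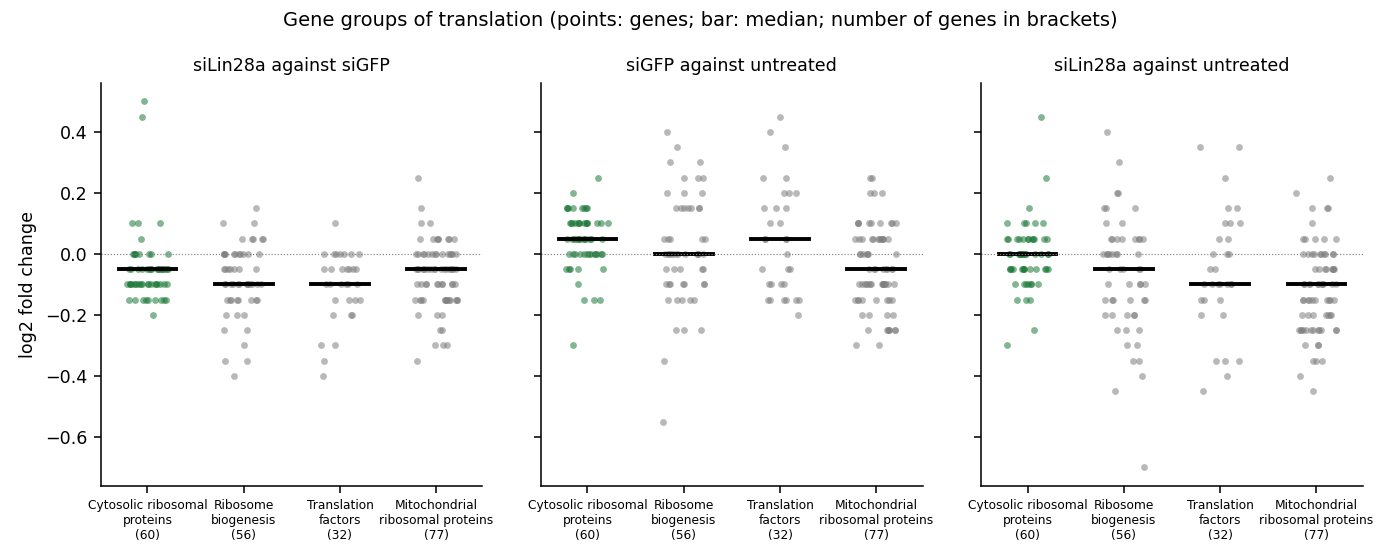
The log2 fold change (y axis) of each gene in 4 gene groups of translation (x axis, number of genes in brackets) is plotted for the 3 comparisons, with bars for the medians. The 60 cytosolic ribosomal proteins have medians of −0.05, 0.05 and 0.00, and the other groups have medians between −0.10 and 0.05.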

How the data were processed

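RNA was measured on 6 arrays, 2 each of siLin28a, siGFP and untreated A3-1 cells. The authors deposited log2 values made with Affymetrix Expression Console and RMA, per the submitters' processing notes, and tool versions are not given in the sources used. Of 35556 rows, the 23410 that name a gene in the platform annotation were tested. The members and gene lists were chosen with earlier results of these data known. All 60 members matched RefSeq by Entrez number.

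Differences were tested two-sided with limma (version 3.58.1, R version 4.3.3; lmFit, contrasts.fit and eBayes, no trend), with the 3 groups sharing a variance of 3 residual and 3.19 prior degrees of freedom, and the fit was checked on simulated data. Benjamini-Hochberg adjustment ran over the 23410 rows, dim rows included, at a threshold of 0.05. With 2 arrays a group, an exact permutation p cannot fall under 0.333, and none is given. Lists have counts and medians and no test.

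The text names the members of the P stalk, tunnel exit, mRNA entry, mRNA exit and MDM2-binding lists, and Rps6 and Rps19. It also names every listed paralog, with its core gene where that gene is a member. Further names are the 5 members highest and lowest in each comparison and the 3 brightest and dimmest. Of each other list, 2 genes are named for siLin28a against siGFP and for siGFP against untreated. Rpl30, Rpl7a, Rps12 and Ltn1 were named after their values were seen. Rpl32l, a copy outside the paralog list, was named as well. Alternatives were other scalings, a replicate block, a filter at a mean of 6, other variance settings, only the groups compared, and leaving out each array.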

Additional observations from a re-analysis of the deposited data

How the results depend on the processing

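No ribosomal protein gene passed the limma threshold under any alternative run. Over all rows, siLin28a against siGFP gave 1 call with cyclic loess and 1 with a robust prior, Lin28a in each, and siLin28a against untreated gave 5 with cyclic loess and 7 with a robust prior. Other alternatives gave 0. A replicate block was also run, and the labels do not say whether same-numbered arrays share more than a number. Values follow in the order siLin28a against siGFP, siGFP against untreated and siLin28a against untreated. Deviations of same-numbered arrays from their group means correlated at 0.357, 0.154 and −0.0352. With the block, 1350, 1255 and 1933 rows had an unadjusted limma p under 0.05, against 949, 825 and 1508 without it. The block called 0 rows, and whether the arrays are paired was not tested. Leaving out an array, the members' median ran from −0.15 to 0.03 for siLin28a against siGFP, from −0.03 to 0.15 for siGFP against untreated and from −0.05 to 0.05 for siLin28a against untreated, where cyclic loess gave 0.06.

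Of 35 named members some changed sign, all at sizes below the threshold, and the cause was not tested. For siLin28a against siGFP, further quantile normalization and cyclic loess gave 0.01 and 0.04 for Rpl22, 0.03 and 0.03 for Rpl23a and Rps4l and 0.02 and 0.03 for Rps4x, and cyclic loess gave 0.02 for Rps18. For siLin28a against untreated they gave 0.04 and 0.04 for Rps15a, 0.04 and 0.03 for Rps21, 0.05 and 0.04 for Rps27l, 0.06 and 0.03 for Rps28 and 0.07 and 0.03 for Rps4l, and cyclic loess gave 0.02 for Rpl7.

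Leaving out an array, siLin28a against siGFP ran from −0.25 to 0.05 for Rpl10 and Rplp1, −0.15 to 0.05 for Rpl23a, Rps18 and Rps4x, −0.40 to 0.10 for Rps28 and Rps29, −0.35 to 0.25 for Rps4l, −0.05 to 0.25 for Rps19 and −0.05 to 0.15 for Rps6. For siGFP against untreated it ran from −0.10 to 0.20 for Rpl10 and Rplp2, −0.25 to 0.15 for Rpl10l, −0.35 to 0.05 for Rpl29, −0.05 to 0.25 for Rplp0, −0.05 to 0.15 for Rps18, −0.15 to 0.05 for Rps27l and Rps6 and −0.15 to 0.35 for Rps28. For siLin28a against untreated it ran from −0.15 to 0.05 for Rpl10, Rps21 and Rps27l, −0.05 to 0.15 for Rpl23a, Rplp1 and Rps9, −0.35 to 0.05 for Rpl29, −0.10 to 0.20 for Rpl5, −0.20 to 0.10 for Rps28 and Rps4l and −0.40 to 0.10 for Rps29. With 2 arrays per group, values rounded to 0.1 and no probe-level files used here, differences near 0.1 could not be resolved.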
